A study of Homo sapiens with 4 samples.

Results

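Liver cancer stem and progenitor markers are genes by which cells with the ability to renew a tumour, or immature cells of the liver, are commonly recognised. The 10 genes described here are the surface proteins PROM1, EPCAM, CD44, CD24, ANPEP and THY1, the transcription factors SOX9 and SOX4, the keratin KRT19 and the enzyme ALDH1A1. They were found by matching the gene numbers of the RNA sequencing tables to RefSeq symbols, and all 10 were among the 46427 gene numbers listed. RNA was measured in Huh7 and HepG2, which are established human liver tumour cell lines labelled as hepatocellular carcinoma (HCC).

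Cells at the top of the hierarchy of a liver tumour are sorted by surface proteins such as CD133, the product of PROM1, EPCAM and CD90, the product of THY1. These proteins do not share one function. CD44 binds hyaluronan, EPCAM joins epithelial cells, CD24 is a small glycoprotein held in the membrane by a lipid anchor, and CD13, the product of ANPEP, trims peptides at the cell surface. In the normal liver, SOX9, KRT19 and EPCAM are found in bile duct cells and in progenitor cells rather than in mature hepatocytes, SOX4 acts in early bile duct development, and ALDH1A1 oxidises retinal to retinoic acid and is the enzyme behind a common assay for stem cells.

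Each line was transfected for 5 h with 20 nM siRNA, which was either a negative control (NC-siRNA, genotype label WT) or directed against COP1 (COP1-siRNA, genotype label COP1 Knockdown), and cells were harvested 48 h later. COP1 encodes an E3 ubiquitin ligase, and the study asked what its silencing does to HCC cells, their stem-like properties included. There was 1 library of polyadenylated RNA per line and siRNA, 4 in all and all with the same batch label. None of the differences between single libraries below could therefore be checked against replicates, and p-values are given only for a fit over all 4 libraries. Levels are in TPM, a share of all transcripts that allows for gene length and sums to the same total in each library. COP1 itself was at 19.7 TPM under NC-siRNA and at 6.18 TPM under COP1-siRNA in Huh7, and at 26.9 and 16.1 TPM in HepG2, so that 31.4% and 59.9% of it was left. The ratio of coverage to FPKM, which follows depth, lay between 5.75 and 7.47 over the libraries, and 12594 to 14138 genes reached 1 TPM.

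The markers differed widely between the lines, but not all in one direction. Of the 9 tested, CD24, PROM1, CD44, ALDH1A1 and KRT19 were at least 2-fold higher in Huh7 with either siRNA, SOX9 and SOX4 lay within 2-fold, and EPCAM and ANPEP were lower in Huh7. Summed over the 10 genes, which ALDH1A1 and CD24 dominate in Huh7, the markers came to 2903 TPM under NC-siRNA and at 2584 TPM under COP1-siRNA in Huh7, against 230.1 and 297 TPM in HepG2. ALDH1A1 alone made up 57.0% and 55.8% of the sum in Huh7, and 28.3% and 32.1% in HepG2. Of the 10 genes, 9 reached 1 TPM in each Huh7 library and 7 in each HepG2 library. A lower level in a line can reflect fewer cells that carry a marker or less of its RNA per cell, and the present libraries, made from whole cultures, cannot tell these apart.

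**Figure D1:**
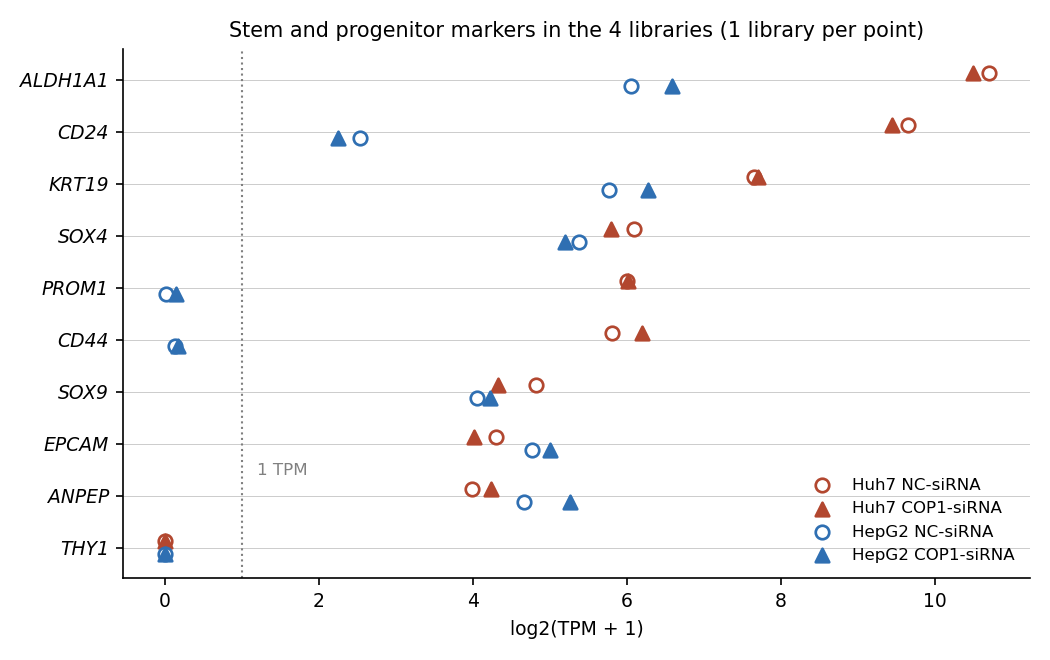
Level of each of the 10 markers in the 4 libraries, as log2(TPM + 1) on the horizontal axis, with 1 point per library and the dotted line at 1 TPM. ALDH1A1 and CD24 lead in Huh7 with 1653 and 804 TPM under NC-siRNA, whereas PROM1 and CD44 lie left of the line in both HepG2 libraries and THY1 lies at 0 in all 4.

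Among the surface proteins, CD24 was the most abundant in Huh7. CD24 (gene 100133941, chr6:106969831-106976855 of GRCh38, minus strand) was at 804 TPM in Huh7 with NC-siRNA and at 693 TPM with COP1-siRNA. In HepG2 it was at 4.78 and 3.74 TPM. Both Huh7 libraries thus lay above both HepG2 libraries, by a plain TPM ratio of 168 with NC-siRNA and 185 with COP1-siRNA. In the order of all genes that reached 1 TPM, CD24 stood at rank 166 and 186 in Huh7 and at rank 10638 and 11261 in HepG2. Differences are given from here on as log2(TPM + 1), a scale that understates those of genes near or under 1 TPM, unless a plain ratio is named. The value in Huh7 minus that in HepG2 was 7.12 with NC-siRNA and 7.19 with COP1-siRNA.

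The CD24 level is uncertain in one respect, because the genome holds a nearly identical processed copy, the pseudogene CD24P4. The coding sequence of CD24 is shown because the copy differs from it at only 2 of 243 positions, an identity of 99.2%. It was read from the GRCh38 genome with the GENCODE 29 annotation of the minus strand, where it spans chr6:106971661-106974646 with its intron. The differing bases are in capitals.

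CD24 coding sequence: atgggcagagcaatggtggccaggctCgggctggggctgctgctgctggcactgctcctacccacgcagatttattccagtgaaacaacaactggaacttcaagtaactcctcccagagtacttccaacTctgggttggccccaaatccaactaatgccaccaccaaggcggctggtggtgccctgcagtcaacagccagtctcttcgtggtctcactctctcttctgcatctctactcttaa

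Counted from 1 at the first base of the start codon, and with the base of CD24 given before that of CD24P4, the differences are C27T and T130A. Of the 144 stretches of 100 bases within the coding sequence, 17 were identical in the copy. CD24P4 was at 63.7 and 56.6 TPM in Huh7 and at 0.226 and 0.236 TPM in HepG2, in each line with NC-siRNA before COP1-siRNA. This was 7.34% and 7.55% of the sum of both genes in Huh7, and 4.51% and 5.93% in HepG2. The sum was 868 and 750 TPM in Huh7 and 5.01 and 3.97 TPM in HepG2, so the order of the libraries was that of CD24 alone.

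PROM1 (gene 8842, chr4:15968226-16084059, minus strand), which encodes CD133, was at 63.1 TPM under NC-siRNA and at 63.8 TPM under COP1-siRNA in Huh7. In HepG2 it was at 0.0178 and 0.108 TPM. PROM1 RNA was thus plentiful in one line and below 1 TPM in both libraries of the other. Huh7 minus HepG2 was 5.98 on the log2(TPM + 1) scale with NC-siRNA and 5.87 with COP1-siRNA, and a plain ratio is not given because the HepG2 values are so small.

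CD44 (gene 960, chr11:35139168-35232402, plus strand) followed the same order. It was at 54.8 TPM under NC-siRNA and at 72.0 TPM under COP1-siRNA in Huh7, and at 0.0961 and 0.128 TPM in HepG2. The difference between the lines was 5.67 with NC-siRNA and 6.02 with COP1-siRNA on the log2(TPM + 1) scale. The sizes for PROM1 and CD44 rest on the added 1. With 0.1 added in its place they were 9.07 and 8.13 with NC-siRNA, and 8.26 and 8.30 with COP1-siRNA, above the 7.36 and 7.50 of CD24, whereas with 1 added CD24 was above both. Which of the 3 differed most therefore turns with the number added.

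EPCAM (gene 4072, chr2:47369311-47387020, plus strand) and ANPEP (gene 290, chr15:89784895-89814852, minus strand) had the opposite order, with more RNA in HepG2. EPCAM was at 18.6 and 15.2 TPM in Huh7 and at 26.3 and 31.0 TPM in HepG2, with NC-siRNA before COP1-siRNA. ANPEP was at 14.9 and 17.8 TPM in Huh7 and at 24.4 and 37.3 TPM in HepG2. For each gene both HepG2 libraries lay above both Huh7 libraries, but only ANPEP with COP1-siRNA passed 2-fold. Huh7 minus HepG2 was −0.47 and −0.98 for EPCAM and −0.67 and −1.03 for ANPEP. All genes together were also lower in Huh7 on this scale, with medians of −0.37 and −0.35, so that a part of these values is shared by the whole table.

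THY1 (gene 7070, chr11:119415476-119424985, minus strand), which encodes CD90, was listed at 0 TPM in all 4 libraries. USP2-AS1 overlaps it on the opposite strand and was at 0.193 and 0.457 TPM in Huh7 and at 3.57 and 2.65 TPM in HepG2. The library kit keeps the strand, but whether strand was used in assigning reads is not given in the sources used here.

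SOX9 (gene 6662, chr17:72121020-72126416, plus strand), a transcription factor of bile duct and progenitor cells, was at 27.1 TPM under NC-siRNA and at 19.0 TPM under COP1-siRNA in Huh7. In HepG2 it was at 15.6 and 17.6 TPM. The lines were thus 0.76 apart with NC-siRNA and 0.11 with COP1-siRNA, on the log2(TPM + 1) scale. SOX4 (gene 6659, chr6:21593751-21598619, plus strand) was at 67.0 and 54.4 TPM in Huh7 and at 40.5 and 35.5 TPM in HepG2, which gave differences of 0.71 and 0.60. Neither factor passed 2-fold between the lines, and with the TPM of each pair of libraries rescaled by the median ratio over all genes both passed it with NC-siRNA only, at 1.10 for SOX9 and 1.06 for SOX4.

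KRT19 (gene 3880, chr17:41523617-41528308, minus strand), a keratin of bile duct cells, was at 199.7 and 207 TPM in Huh7 and at 53.2 and 76.1 TPM in HepG2. The Huh7 libraries were higher by 1.89 with NC-siRNA and 1.43 with COP1-siRNA on the log2(TPM + 1) scale. Its 3 pseudogenes in the tables, KRT19P1, KRT19P2 and KRT19P3, stayed at or below 0.0151 TPM in every library.

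ALDH1A1 (gene 216, chr9:72900671-72953053, minus strand), a retinaldehyde dehydrogenase, was the most abundant marker in all 4 libraries. It was at 1653 TPM under NC-siRNA and at 1442 TPM under COP1-siRNA in Huh7, and at 65.2 and 95.2 TPM in HepG2. The plain ratio of Huh7 to HepG2 was 25.4 with NC-siRNA and 15.1 with COP1-siRNA, or 4.64 and 3.91 on the log2(TPM + 1) scale. Among all genes that reached 1 TPM, ALDH1A1 stood at rank 75 and 90 in Huh7 and at rank 2406 and 1657 in HepG2.

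Ordered by TPM, the markers ran in Huh7 with NC-siRNA from ALDH1A1 over CD24, KRT19, SOX4, PROM1, CD44, SOX9 and EPCAM to ANPEP, with THY1 last. In HepG2 with NC-siRNA the order was ALDH1A1, KRT19, SOX4, EPCAM, ANPEP, SOX9, CD24, CD44, PROM1 and THY1. Neighbours such as SOX4, PROM1 and CD44 in Huh7, at 67.0, 63.1 and 54.8 TPM, stood in another order with COP1-siRNA, where CD44 led them. With 1 library per condition there is no spread by which to say whether such neighbours differ.

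Counted over the 9 markers with at least 1 TPM in a library compared, CD24, PROM1, CD44, ALDH1A1 and KRT19 were at least 2-fold higher in Huh7 than in HepG2 with NC-siRNA, and 0 were 2-fold higher in HepG2. Of all 15055 genes tested in this comparison, 14.7% were 2-fold higher in Huh7 and 27.9% in HepG2. With COP1-siRNA the same 5 markers were higher in Huh7 and ANPEP was higher in HepG2, while EPCAM lay just under the threshold. The background was 14.0% higher in Huh7 and 26.0% higher in HepG2 over 15126 genes. The median difference of the markers was 1.89 with NC-siRNA and 1.43 with COP1-siRNA, beside −0.37 and −0.35 over all genes. The comparisons of the lines share no library with each other, but they use the libraries of the siRNA comparisons below, and each is one library against another and says nothing of how cultures of a line vary.

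A limma fit of log2(TPM + 1) over the 4 libraries, with cell line and siRNA as terms, was added after the data were seen. It leaves 1 residual degree of freedom, and its spread is that of the siRNA pairs, not of separate cultures of a line. Each SE is mostly borrowed from the spread over all genes. That spread weighs as 4.84 prior degrees of freedom between the lines and 4.97 with COP1-siRNA. Between the lines, adjusted over 15486 genes, 6 markers were higher in Huh7 and 2 in HepG2 at an adjusted p under 0.05, beside 27.3% and 51.2% of all genes. CD24, at 7.16 ± 0.08 (SE), was higher in Huh7 with an adjusted p of 1.23e-06, and PROM1, CD44, ALDH1A1, KRT19 and SOX4 were higher too. EPCAM, at −0.73 ± 0.14 (SE) with an adjusted p of 0.00386, and ANPEP, at −0.85 ± 0.12 (SE) with 0.00094, were higher in HepG2. SOX9 was at 0.43 ± 0.17 (SE) with an adjusted p of 0.0525.

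Scaling shifts all differences between the lines. Rescaling by the median ratio moved them by 0.35 with NC-siRNA and 0.34 with COP1-siRNA towards Huh7, because the TPM ratio of Huh7 to HepG2 had a median of −0.35 and −0.34 in log2. The background then became 19.6% higher in Huh7 and 21.5% higher in HepG2 with NC-siRNA, and 18.9% and 20.5% with COP1-siRNA. The markers past 2-fold were 7 higher in Huh7 and 0 higher in HepG2 with NC-siRNA, and 5 and 0 with COP1-siRNA. ANPEP lost its place above the threshold, at −0.71 under this scaling, −0.84 under upper-quartile scaling and −0.99 with FPKM in place of TPM. EPCAM, rescaled by the median ratio, was at −0.14 with NC-siRNA and at −0.66 with COP1-siRNA. The limma fit above used TPM without rescaling.

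**Figure D2:**
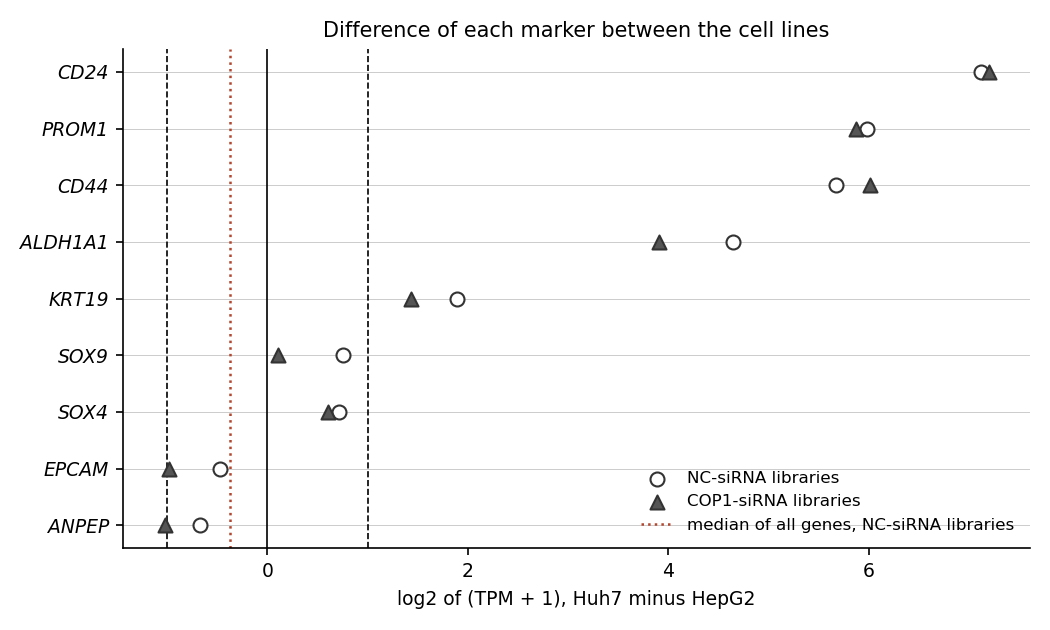
Difference of each marker between the lines, log2(TPM + 1) in Huh7 minus HepG2, with circles for the NC-siRNA and triangles for the COP1-siRNA libraries, dashed lines at 2-fold and a dotted line at the median of all genes with NC-siRNA, −0.37. CD24, PROM1, CD44 and ALDH1A1 lie between 3.91 and 7.19, KRT19 at 1.89 and 1.43, and EPCAM and ANPEP left of 0.

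The sequences just before a listed transcription start are shown for the 4 markers with the largest differences between the lines, PROM1, CD44, CD24 and ALDH1A1, so that the regions to which these levels belong can be seen side by side. They are the 100 bases before the outermost start that the RefSeq promoter table of GRCh38.p14 lists, written on the strand of the gene, with CG pairs in capitals. PROM1 is at chr4:16084024-16084123 (minus), CD44 at chr11:35139071-35139170 (plus), CD24 at chr6:106975628-106975727 (minus) and ALDH1A1 at chr9:72953054-72953153 (minus). By the gene coordinates of the expression tables, the CD24 stretch lies inside the gene, downstream of the start given there, and the stretches of PROM1 and CD44 overlap the gene by 36 and 3 bases.

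PROM1: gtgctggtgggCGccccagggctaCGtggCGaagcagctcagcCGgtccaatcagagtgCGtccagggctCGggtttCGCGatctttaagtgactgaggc

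CD44: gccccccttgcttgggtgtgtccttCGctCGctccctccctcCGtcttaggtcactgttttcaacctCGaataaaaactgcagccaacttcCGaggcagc

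CD24: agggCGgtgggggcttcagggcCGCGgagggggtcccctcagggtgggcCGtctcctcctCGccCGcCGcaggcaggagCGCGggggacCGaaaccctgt

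ALDH1A1: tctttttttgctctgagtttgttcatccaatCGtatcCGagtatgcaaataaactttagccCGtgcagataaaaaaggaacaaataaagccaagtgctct

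Of the 10 markers, 6 had an entry in the promoter table, which covers 250 bases before to 50 bases after a start. These 300 bases held 25 CG pairs in CD24, 18 in PROM1, 18 in CD44 and 7 in ALDH1A1, and 32 in ANPEP and 8 in SOX4, beside a median of 14.0 over 35116 RefSeq promoters. The markers that set the lines apart thus included promoters rich and poor in CG pairs. The motif TATAAA, searched on both strands, was in 0 of the 6 and in 11.5% of all promoters. The motif TGANTCA, bound by AP-1 factors, was likewise in 0 of the 6 and in 7.71% of all promoters. Neither motif contains the other, and they were chosen after the expression values were seen.

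With COP1-siRNA, 0 of the 9 markers tested in Huh7 passed 2-fold in either direction. Over all 13000 genes tested in Huh7, 1.08% passed it. At 1.5-fold the markers numbered 0 too, against 5.48% of all genes. SOX9 had the largest value, −0.49 on the log2(TPM + 1) scale, from 27.1 to 19.0 TPM, and 8.76% of all genes tested in Huh7 differed by at least as much. CD44 had the largest value above 0, 0.39, from 54.8 to 72.0 TPM, which 14.4% of all genes reached.

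The other Huh7 values were smaller. Among the surface proteins, ANPEP was at 0.24, PROM1 at 0.01, CD24 at −0.21 and EPCAM at −0.28. SOX4 was at −0.30, KRT19 at 0.05 and ALDH1A1 at −0.20. Above 0 were 4 markers and below 0 were 5, with a median of −0.20 beside −0.00083 over all genes, whose standard deviation across genes was 0.30. The NC-siRNA library of Huh7 held 2903 TPM of marker RNA and the COP1-siRNA library 2584 TPM, and most of the gap of these sums lies in ALDH1A1 and CD24.

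In HepG2, 0 of the 7 markers tested passed 2-fold with COP1-siRNA, against 0.934% of the 14456 genes tested. At 1.5-fold, ANPEP passed, against 4.43% of all genes. ANPEP went from 24.4 to 37.3 TPM, a value of 0.59 that 4.25% of all genes reached in either direction. ALDH1A1 went from 65.2 to 95.2 TPM and had 0.54, which 5.49% of all genes reached. KRT19 went from 53.2 to 76.1 TPM and had 0.51, which 6.42% reached.

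These 3 markers stood above the rest of the HepG2 values. EPCAM was at 0.23 and SOX9 at 0.16, while SOX4 was at −0.18 and CD24, measured at under 5 TPM, at −0.29. Above 0 were 5 markers and below 0 were 2, with a median of 0.23 beside −0.0080 over all genes, whose standard deviation across genes was 0.28. PROM1, CD44 and THY1 did not reach 1 TPM in HepG2 and were not tested there. The COP1-siRNA library of HepG2 was 1.27 times as deep as its control by the ratio of coverage to FPKM, and that of Huh7 1.13 times. The part of depth in these values was not tested.

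**Figure D3:**
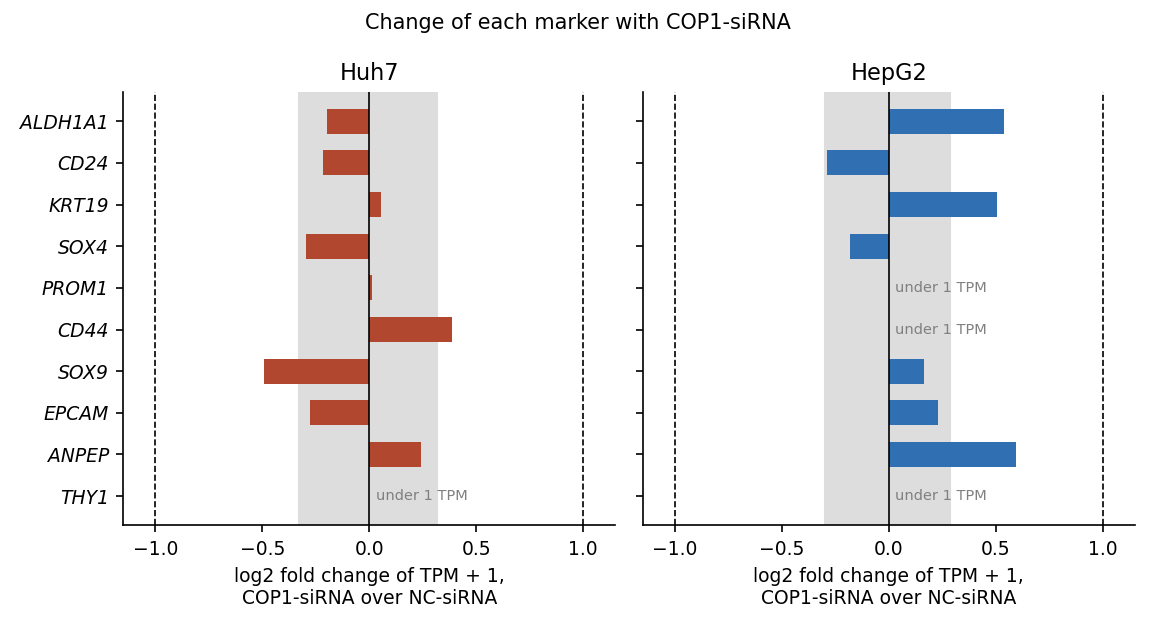
Log2 fold change of TPM + 1 with COP1-siRNA over NC-siRNA for each marker in Huh7 (left) and HepG2 (right), with dashed lines at 2-fold and a grey band from the 10th to the 90th percentile of all genes tested in the line. No bar reaches a dashed line, and SOX9 and CD44 in Huh7 and ANPEP, ALDH1A1 and KRT19 in HepG2 reach beyond the band.

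The siRNA values of the lines were then set side by side for the 7 markers tested in both. CD24 and SOX4 were below 0 in each line, and ANPEP and KRT19 above 0. EPCAM, SOX9 and ALDH1A1 were below 0 in Huh7 and above 0 in HepG2. Markers with opposite signs were thus 3 of 7, and of all 11970 genes tested in both lines 39.8% had opposite signs. ALDH1A1 differed most, with −0.20 in Huh7 and 0.54 in HepG2, a gap that 3.31% of all genes equalled or exceeded. For SOX9, with −0.49 and 0.16, the share was 4.42%, and for EPCAM, with −0.28 and 0.23, it was 8.53%. KRT19 was at 0.05 and 0.51, and 11.1% of all genes differed by as much between the lines.

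The same limma fit, with the lines as pairs, gave the siRNA effect shared by both lines. At an adjusted p under 0.05, 0 of the 7 markers and 0.0% of the 11970 genes passed in either direction, while 1491 genes and 3 markers had an unadjusted p under 0.05. These were ANPEP, at 0.42 ± 0.12 (SE) with an adjusted p of 0.241, CD24, at −0.25 ± 0.08 (SE) with 0.303, and SOX4, at −0.24 ± 0.09 (SE) with 0.351. Each of them had the same sign in both lines. A low p in this fit favours such genes, because its residual is the disagreement between the lines.

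Other markers of liver cancer stem cells, 25 genes such as LGR5, ICAM1 and MYC, were examined in the same way. With COP1-siRNA, 0 of 15 tested passed 2-fold in Huh7 and 0 of 20 in HepG2, with medians of −0.03 and 0.10. Of all genes only 1.08% and 0.934% passed it, with medians of −0.00083 and −0.0080. AFP, the fetal serum protein, was the most abundant of them, at 7444 and 6907 TPM in Huh7 and at 370.3 and 399 TPM in HepG2. GPC3, a fetal proteoglycan, was at 439 and 411 TPM in Huh7 and at 212 and 262 TPM in HepG2. The adhesion protein ALCAM was at 196 and 152 TPM in Huh7 and at 40.0 and 37.2 TPM in HepG2.

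Between the lines this list split. With NC-siRNA, 7 of 20 tested were 2-fold higher in Huh7 and 8 in HepG2, beside 14.7% and 27.9% of all genes. With COP1-siRNA they were 5 and 8 of 21, beside 14.0% and 26.0% of all genes. The receptor tyrosine kinase KIT was listed at 0 in both Huh7 libraries and was at 9.22 and 8.95 TPM in HepG2. SOX2, a pluripotency factor, was at 0.0183 and 0.118 TPM in Huh7 and at 6.96 and 7.60 TPM in HepG2. NANOG and POU5F1, also pluripotency factors on this list, stayed at or below 0.0663 TPM in every library. The medians of Huh7 minus HepG2 were −0.56 and −0.44, where those of the 10 markers were 1.89 and 1.43. Over all genes they were −0.37 and −0.35.

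SOX9 and KRT19 belong to the bile duct programme, which Notch signalling drives in the developing liver. Of 22 biliary and Notch pathway genes, 0 of 13 tested in Huh7 and 0 of 16 in HepG2 passed 2-fold with COP1-siRNA. Of all genes only 1.08% and 0.934% passed it. The medians of the list were −0.18 and −0.06, beside −0.00083 and −0.0080 over all genes. HES1, a direct Notch target, was at 40.2 and 30.7 TPM in Huh7 and at 42.6 and 48.0 TPM in HepG2, with values of −0.38 and 0.17. HEY1 and NRARP, which are also Notch targets, were low in Huh7 at 2.88 and 2.43 TPM and at 0.259 and 0.310 TPM. In HepG2 they were at 190 and 155 TPM and at 33.3 and 30.6 TPM. With COP1-siRNA, HEY1 had values of −0.18 in Huh7 and −0.29 in HepG2. NRARP, under 1 TPM in Huh7, had −0.12 in HepG2.

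SPP1, which encodes osteopontin, was at 3.94 and 4.23 TPM in Huh7 and at 544 and 509 TPM in HepG2. The list as a whole split between the lines. With NC-siRNA, 6 of 18 genes were 2-fold higher in Huh7 and 7 in HepG2, beside 14.7% and 27.9% of all genes. With COP1-siRNA they were 5 and 7 of 18, beside 14.0% and 26.0% of all genes. The bile duct genes KRT7 and CFTR stayed at or below 0.169 TPM in every library.

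Relatives of the markers were taken as a further list of 23 genes. With COP1-siRNA, 0 of 10 tested in Huh7 and 0 of 15 tested in HepG2 passed 2-fold, with medians of 0.02 and 0.03. Of all genes only 1.08% and 0.934% passed it, with medians of −0.00083 and −0.0080. The keratins KRT8 and KRT18, which mature hepatocytes also make, were at 3088 and 3384 TPM and at 2234 and 2433 TPM in Huh7. In HepG2 they were at 136 and 202 TPM and at 123 and 163 TPM. KRT8, KRT18 and KRT19 were thus all more abundant in Huh7. Their values with COP1-siRNA were above 0 in both lines. They were 0.13, 0.12 and 0.05 in Huh7 and 0.56, 0.40 and 0.51 in HepG2.

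The aldehyde dehydrogenases went different ways between the lines. ALDH1A2, another retinaldehyde dehydrogenase, was listed at 0 in Huh7 with NC-siRNA and was at 0.0887 TPM with COP1-siRNA, while HepG2 held 68.0 and 66.9 TPM. Huh7 thus carried ALDH1A1 at 1653 and 1442 TPM with almost no ALDH1A2. HepG2 carried ALDH1A1 and ALDH1A2 at 65.2 and 68.0 TPM with NC-siRNA, and at 95.2 and 66.9 TPM with COP1-siRNA. DPP4, a surface peptidase as is ANPEP, was at 84.2 and 106 TPM in Huh7 and at 13.3 and 23.3 TPM in HepG2, and its siRNA values were 0.32 and 0.77. Of the relatives, 6 of 17 were 2-fold higher in Huh7 and 7 in HepG2 with NC-siRNA, beside 14.7% and 27.9% of all genes. With COP1-siRNA they were 5 and 8 of 16, beside 14.0% and 26.0% of all genes.

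**Figure D4:**
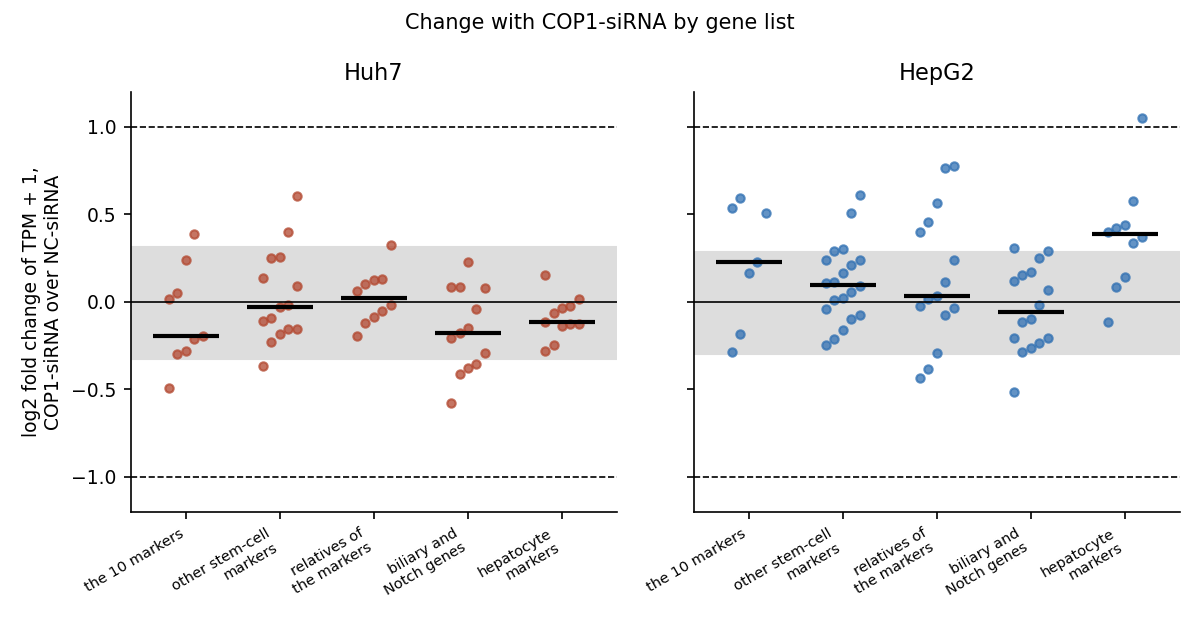
Log2 fold change of TPM + 1 with COP1-siRNA over NC-siRNA for the 10 markers and 4 further gene lists in Huh7 (left) and HepG2 (right), with 1 point per gene tested, a black bar at the median of each list, a grey band from the 10th to the 90th percentile of all genes and dashed lines at 2-fold. The medians of the markers are −0.20 and 0.23, and FGB among the hepatocyte markers in HepG2 is the only point past 2-fold.

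Markers of mature hepatocytes were examined because a stem or progenitor marker is read against them. They summed to 12906 and 11310 TPM in Huh7 and to 2360 and 2745 TPM in HepG2, so Huh7 had more of the hepatocyte markers as well as more of the stem and progenitor markers. ALB, which encodes albumin, was at 8117 and 6683 TPM in Huh7 and at 1509 and 1598 TPM in HepG2. TTR was at 520 and 526 TPM in Huh7 and at 20.9 and 27.9 TPM in HepG2, and SERPINA1 at 671 and 642 TPM and at 399 and 536 TPM. TF, which encodes transferrin, was at 206 and 203 TPM in Huh7 and at 28.3 and 36.0 TPM in HepG2. CYP3A4, an enzyme of the mature liver, was listed at 0 in all 4 libraries.

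With COP1-siRNA the hepatocyte list had a median of −0.12 in Huh7, where 0 of 11 tested passed 2-fold and 9 were below 0. In HepG2 its median was 0.39, where FGB passed and 9 of 10 tested were above 0. Of all genes, 1.08% passed 2-fold in Huh7 and 0.934% in HepG2, with medians of −0.00083 and −0.0080. FGB, the fibrinogen beta chain, rose from 6.97 to 15.5 TPM in HepG2, a value of 1.05, and was at 2461 and 2403 TPM in Huh7. The part of the hepatocyte genes in the HepG2 values of ANPEP, ALDH1A1 and KRT19 was not tested. Between the lines, 6 of 11 hepatocyte markers were 2-fold higher in Huh7 and 1 in HepG2 with each siRNA. Of all genes, 14.7% and 27.9% were so with NC-siRNA, and 14.0% and 26.0% with COP1-siRNA.

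Markers of cell types other than hepatocytes were checked as well. Of 7 fibroblast and stellate cell markers, THY1 among them, 1 reached 1 TPM in Huh7 and 2 in HepG2, and the list summed to 121 and 122 TPM in Huh7 and to 14.0 and 18.3 TPM in HepG2. Nearly all of the Huh7 sum was LUM, a proteoglycan, at 121 TPM in both libraries, while ACTA2 was listed at 0 and COL1A1 was at 0.0509 and 0.0853 TPM. In HepG2, ACTA2 was at 11.1 and 15.4 TPM, COL1A1 at 2.33 and 2.47 TPM and LUM at 0.194 and 0.153 TPM.

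Of 4 endothelial markers, PECAM1 reached 1 TPM in Huh7, at 5.08 and 7.36 TPM, where KDR and CDH5 were listed at 0, and 0 reached 1 TPM in HepG2. Of 5 blood cell markers, PTPRC, which encodes CD45, was listed at 0 in all 4 libraries. CD68 was at 58.2 and 56.4 TPM in Huh7 and at 15.6 and 17.3 TPM in HepG2, and CD79A at 0 and 0.106 TPM and at 1.14 and 2.79 TPM. LUM, PECAM1 and CD68 were thus higher in Huh7, the line that also held the higher CD44, PROM1 and CD24, while COL1A1, ACTA2 and CD79A were lower there. The part of other cell types in the marker levels was not tested.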

How the data were processed

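RNA sequencing of 4 libraries, 1 per cell line and siRNA, was analysed from the gene tables of the series. For each gene number the authors deposited a coverage (mean reads per base, not normalized for depth), an FPKM and a TPM value. The deposited TPM values sum to 1000000 in each library, and the FPKM values that the authors deposited are proportional to them. The submitters' processing notes name FastQC 0.11.7, Trimmomatic 0.38, HISAT2 2.1.0, StringTie 2.1.3b, edgeR and GRCh38, without their roles. The annotation, and how reads of overlapping or copied genes were assigned, are not given in the sources used here.

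The gene name column held only placeholders, so the markers were matched by NCBI Gene number to RefSeq (GRCh38.p14), where 44698 gene numbers (96.3%) were found. Of the 10 markers, 8 had the same start and end there, and the largest difference was 36 bases. Where a gene number was repeated in a table (51 gene numbers), its values were summed. The tables give no read counts, so the depth in reads is unknown and no interval could be given. Coverage divided by FPKM gave the relative depth.

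Fold changes were log2((TPM + 1)/(TPM + 1)) between 2 libraries, over genes with at least 1 TPM in either, and 2-fold was the threshold. The study also required a p-value, which 2 single libraries do not give. The share of genes past the threshold and the share with a change at least as large were counted over all genes tested. The markers and gene lists were chosen with earlier results of these data known. All 10 markers were named. From each list, the genes named were those past 2-fold with COP1-siRNA, the 3 with the highest mean TPM and, between the lines, the 3 with the largest difference past 2-fold with both siRNAs. Genes overlapping a marker, and pseudogenes of one, were named if they reached 1 TPM. A gene that this rule names is not reported here. Some genes were named outside this rule and chosen after their values were seen. CYP3A4, KRT7, CFTR, NANOG, POU5F1 and the KRT19 pseudogenes were named as genes at or near 0, and LGR5, ICAM1 and MYC as examples. APOA1, ASGR1 and CPS1 were named as hepatocyte markers higher in HepG2. The genes of the closing observations were also chosen in this way.

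Alternatives were a pseudocount of 0.1, FPKM, depth-scaled coverage, median-of-ratios and upper-quartile scaling, no minimum TPM or one of 5, a 1.5-fold threshold, and repeated gene numbers kept apart. CD24 and CD24P4 summed, and a limma fit (trend, Benjamini-Hochberg adjustment) of log2(TPM + 1) with cell line and siRNA as terms, were added after the data were seen. In that fit same-line libraries are pairs, from the labels, for the siRNA comparison. The computations were tested on simulated data. Python 3.11.15, numpy 2.4.6, pandas 2.3.3, matplotlib 3.10.9, R 4.3.3 and limma 3.58.1 were used.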

Additional observations from a re-analysis of the deposited data

Results flagged for a closer look

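Of the 7 markers tested in both lines, 3 had a higher TPM with COP1-siRNA in one line and a lower TPM in the other. For ALDH1A1, the log2 fold change in Huh7 minus that in HepG2 was −0.74, from 1653 to 1442 TPM in Huh7 but from 65.2 to 95.2 TPM in HepG2. For SOX9 it was −0.65, from 27.1 to 19.0 TPM in Huh7 but from 15.6 to 17.6 TPM in HepG2. For EPCAM it was −0.51, from 18.6 to 15.2 TPM in Huh7 but from 26.3 to 31.0 TPM in HepG2. Across all genes tested in both lines this difference had a standard deviation of 0.32. With 1 library per condition the differences were not tested, and opposite signs were also seen in 39.8% of all genes.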

How the results depend on the processing

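Over the alternative settings, with the sum of CD24 and CD24P4 that was added after the data were seen, 0 of the 275 recomputed single-marker values changed sign. The minimum TPM, the pseudocount and the handling of repeated gene numbers could not change the sign of a single marker. Only the remaining settings could have done so. The counts of markers past the threshold moved by more than 1.5 times at 1.5-fold, where HepG2 with COP1-siRNA gave 1 marker (ANPEP) in place of 0 and Huh7 against HepG2 with NC-siRNA gave 8 in place of 5. Of all genes, 4.43% passed 1.5-fold in HepG2 with COP1-siRNA. Between the lines with NC-siRNA, 63.1% of all genes passed 1.5-fold, where 42.6% passed 2-fold. The median of the markers kept its sign, lying with COP1-siRNA at −0.20 to −0.10 in Huh7 but at 0.14 to 0.37 in HepG2, and between the lines from 1.32 to 2.24 with NC-siRNA and from 1.02 to 1.77 with COP1-siRNA. With median-of-ratios scaling SOX9 (1.10) and SOX4 (1.06) came to pass 2-fold between the lines with NC-siRNA, and with a pseudocount of 0.1 EPCAM (−1.02) did so with COP1-siRNA. ANPEP with COP1-siRNA fell short of it under FPKM (−0.99), median-of-ratios (−0.71) and upper-quartile scaling (−0.84). The line differences of PROM1 ranged from 4.72 to 9.07 and those of CD44 from 4.48 to 8.13 with NC-siRNA, since HepG2 was near 0. Median-of-ratios and upper-quartile scaling moved the siRNA comparisons by at most 0.04 in log2, and FPKM moved SOX9 in Huh7 from −0.49 to −0.41. CD24 in HepG2 moved from −0.29 to −0.13 with depth-scaled coverage and to −0.35 with a pseudocount of 0.1. In the limma fit, with the lines as pairs, 0 of 7 markers and 0.0% of all genes passed an adjusted p under 0.05 with COP1-siRNA. Between the lines, where the siRNAs served as pairs, 8 of 9 markers did, beside 78.5% of all genes.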

Other observations

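Some members of the lists stood out by their values and are named here after those were seen. JAG1, a Notch ligand, had the lowest siRNA value of the biliary and Notch genes in Huh7, −0.58, from 56.6 to 37.6 TPM, and was at 6.82 and 5.64 TPM in HepG2, a value of −0.24. ICAM1, a surface adhesion protein also used as a liver cancer stem cell marker, was at 194 and 165 TPM in Huh7, a value of −0.23, and at 14.7 and 23.0 TPM in HepG2, a value of 0.61. SALL4, a fetal liver transcription factor, was at 0.613 and 1.45 TPM in Huh7, a value of 0.60 at a level near 1 TPM. None of these passed 2-fold with COP1-siRNA on the log2(TPM + 1) scale. SALL4 stayed under it only because of the added 1, which weighs heavily at so low a level.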
